A study of Mus musculus with 50 samples.

Results

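Interferon-high stem cells were the cells of a transcript-based stem cell gate that carried the most RNA of 7 interferon-induced genes. The gate took cells with Procr (EPCR, an HSC surface protein) at 50 CPM or more, with a count of Mecom or Hlf (HSC transcription factors), and with under 30 CPM of the proliferation genes Mki67, Top2a and Birc5 together. CPM are counts of a gene per 1000000 counts of the cell. Of 4271 cells read here, 4185 had 1000 or more genes with a count and no more than 10% mitochondrial counts, and 1862 of these passed the gate. The cells were chosen by a score, the mean log2(CPM + 1) over Ifit1, Ifit3, Isg15, Usp18, Rtp4, Ifi44 and Iigp1. The top 10%, 186 cells, are called interferon-high here. They were set against the 931 cells of the lower 50% of the gate, called low-score cells, on genes that neither score nor gate used. The 745 cells between were the middle of the gate.

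Interferons are cytokines, and those of type I are released by cells that sense foreign nucleic acid. Type I interferons bind the receptor chains Ifnar1 and Ifnar2, whose kinases activate transcription factors. One of these, Stat2, takes part with Irf9 in a complex that binds a DNA element called the interferon-stimulated response element (ISRE). Interferon gamma binds Ifngr1 and Ifngr2 and acts mainly through another element, the GAS site. The induced genes encode proteins that block viral replication, destroy pathogen vacuoles, tag proteins with Isg15 or increase antigen presentation. In mouse bone marrow, interferon given acutely is known to bring quiescent HSCs into cycle and to increase their surface Sca-1, the product of Ly6a.

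The cells came from mice that had received a single HSC. Each donor HSC was from a β-actin-GFP transgenic B6-Ly5.2 mouse, was given together with whole marrow of B6-Ly5.2 mice, and went into lethally irradiated B6-Ly5.2 hosts, whose ages are not given in the labels. Of the 50 labelled samples, 10 were taken at 1 month, 26 at 4 months and 14 at 12 months. Marrow was combined with spleen in 5, 4 and 6 of them, and the others were marrow alone. Cells were enriched for c-Kit, stained for CD201, CD150, CD48, Sca-1, c-Kit and lineage markers, and sorted singly by these markers or by GFP. The 67 libraries read here held 22 to 92 cells and 1665151 to 26184494 counts each. The cell names hold a library and a barcode number but no sample title, so no cell could be placed at a month, in a tissue or in the GFP fraction. All cells were therefore treated as 1 pooled sample without replicates, and no p-value or standard error was computed. The intervals in parentheses are exact 95% Poisson intervals for summed counts and exact 95% binomial intervals for shares of cells. They cover counting error only, and amplified copies of a molecule are not independent counts.

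The score had no gap at the chosen boundary. Interferon-high cells scored 4.64 to 10.2 with a median of 5.51, and low-score cells scored 0 to 2.31 with a median of 1.46. The 2 lowest interferon-high cells scored 4.643 and 4.653, the 2 highest cells outside scored 4.638 and 4.619, and 62 gate cells lay within 0.25 of the boundary. The boundary was set by rank, so the group is a range of the score and is not taken as a cell type. A long upper tail was present, with 10 cells at a score of 8 or more. At the other end, 73 low-score cells had no count of any score gene.

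**Figure D1:**
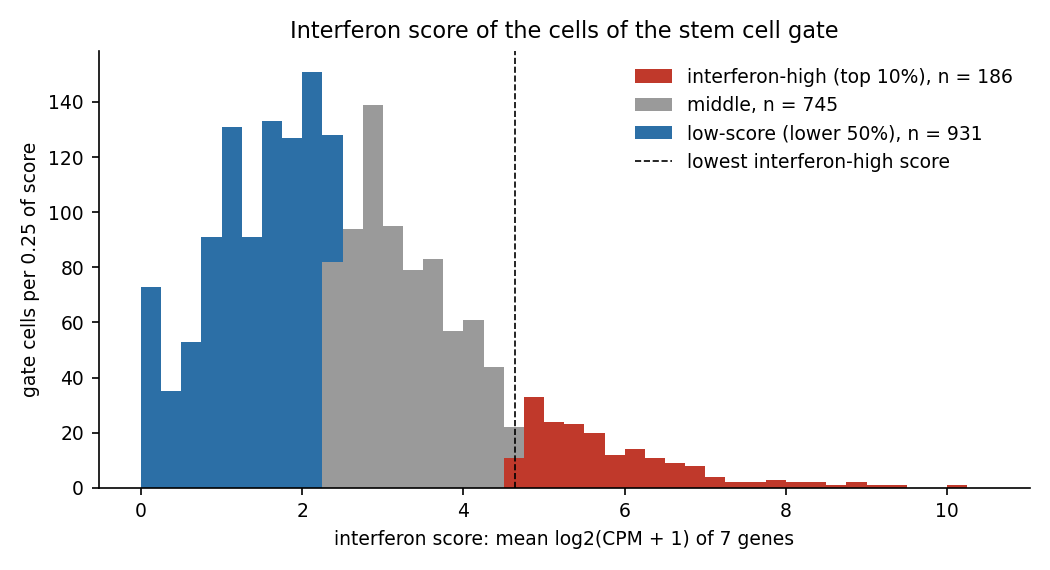
Distribution of the interferon score over the 1862 gate cells, as stacked cells per 0.25 of score (vertical axis) against the mean log2(CPM + 1) of the 7 score genes (horizontal axis). Interferon-high cells (red, 186) lie right of the dashed line at the lowest interferon-high score, 4.64, and low-score cells (blue, 931) lie at or below 2.31, with the middle of the gate (grey) between and no gap at either boundary.

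Depth was close in the 2 groups. Interferon-high cells had a median of 134175 counts and 4254 genes with a count, with 1.68% mitochondrial counts, against 123767 counts, 4058 genes and 1.72% in low-score cells. Across the gate the score and the counts per cell had a Spearman correlation of 0.11 over 1862 cells, given as a description. Shallow cells were fewer among the interferon-high cells, whose lowest 10% had under 39783 counts, against under 27135 in low-score cells. For a set of genes, among them Irf7, Oasl1, Slamf1 and Vwf, shares of cells with a count are given also after thinning every cell to 30000 counts, which left out 7 interferon-high and 101 low-score cells. Other shares are unthinned.

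The 7 score genes themselves, which chose the cells, differed in how many cells carried them. Rtp4, a chaperone of G-protein-coupled receptors, was counted in all 186 interferon-high cells, at 10.8 to 1852 CPM with a median of 587 CPM, against 57.7% of low-score cells with a median of 6.09 CPM. Ifi44 was counted in 93.5% of interferon-high cells, Iigp1 in 88.2%, Usp18 in 82.3%, Ifit1 in 79.6% and Isg15 in 74.7%. The same genes were counted in 30.5% (Ifi44), 45.3% (Iigp1), 20.5% (Usp18), 11.3% (Ifit1) and 15.3% (Isg15) of low-score cells. Ifit3 was the sparsest score gene, with counts in 46 of 186 interferon-high cells (24.7%) and 21 of 931 low-score cells. No interferon-high cell carried fewer than 4 of the 7 genes: 14 cells had 4, 99 had 5, 52 had 6 and 21 had all 7. Reads of Ifit3 can be shared with its near copy Ifit3b, so the split between these genes is uncertain.

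When each score gene was left out and the groups were drawn again from the other 6, the left-out gene still stood higher in the high group. Ifit1, which binds viral RNA caps, was at 142 CPM (137 to 146) in the redrawn high group and 17.5 CPM (16.8 to 18.2) in the redrawn low group, a log2 ratio of 2.95. Isg15, the ubiquitin-like modifier, was at 103 CPM (99.1 to 107) against 22.4 CPM (21.6 to 23.2), a log2 ratio of 2.15. Usp18, the enzyme that removes Isg15 and dampens receptor signalling, was at 111 CPM against 25.3 CPM (2.09). The ratios were 3.54 for Ifit3, 2.20 for Ifi44 and 1.98 for Rtp4. Iigp1, a GTPase that attacks parasite vacuoles, had the smallest ratio at 1.30, with 168 CPM in the high group and 67.7 CPM in the low group. Leaving out 1 gene kept 80.1% to 94.1% of the interferon-high cells in the group.

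Pooled levels of the other genes were compared as the log2 ratio of interferon-high over low-score cells with 1 CPM added. The 7514 genes outside score and gate whose log2 CPM was 4 or more in at least 1 of the groups were compared. A gene is called past the fold at a ratio of at least 1 (0.998% of these genes) or at most -1 (0.532%). HSC markers that the gate did not use had a summed level of 3855 CPM in interferon-high cells, 3971 CPM in low-score cells and 2935 CPM in kept cells outside the gate. The median cell had 3845, 3939 and 3044 CPM in the same order, while the highest cell outside the gate had 21948 CPM. Both gate groups were thus higher than the other cells by median, with overlap, and this check does not show that each gate cell is a stem cell. Of the 26 HSC identity genes 24 reached the minimum level, and their median log2 ratio was -0.04, beside -0.02 over all genes compared. None was past the fold. Meis1, an HSC homeobox factor, was at 292 CPM in interferon-high and 325 CPM in low-score cells, Lmo2 at 453 and 442 CPM, and Pdzk1ip1 at 507 and 521 CPM. These 3 were picked after their values were seen. By the naming rule, Gfi1b and Tcf15 had the lowest ratios of the list at -0.66 and -0.59, and Fgd5 and Hoxb5 the highest at 0.62 and 0.34. The summed CPM of the 26 genes ranged from 1435 to 6990.1 with a median of 3845 in interferon-high cells, and from 238 to 9594 with a median of 3939 in low-score cells. All interferon-high cells thus lay within the range of the low-score cells.

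Markers of mature B, T and NK cells were low in most cells of both groups. The median cell had a summed CPM of 3.16 for the 9 B lineage genes among interferon-high cells and 4.61 among low-score cells, and of 0 in both for the 9 T and NK genes. Some count was present in 51.1% of interferon-high and 53.1% of low-score cells for the B list, and in 49.5% and 48.7% for the T and NK list. For the 8 dendritic genes it was 91.9% and 90.1%, with 148 and 134 CPM in the median cell. By the naming rule, Cd79b (B list) was at 63.1 and 73.6 CPM, Nkg7 (T and NK list) at 86.7 and 91.0 CPM and Bcl11a (dendritic list) at 159 and 169 CPM. The whole dendritic list summed to 163 and 178 CPM, so its values are nearly those of Bcl11a alone and say little of its other genes. In these 3 lists only Ms4a1, Gzma, Ncr1 and Xcr1 had no count among interferon-high cells, which allows up to 0.107 CPM (3 counts of the group's total). Low-score cells had 0.328 CPM (Ms4a1), 0.0546 CPM (Gzma), 0.0936 CPM (Ncr1) and 1.14 CPM (Xcr1). Neutrophil genes were counted more widely, and a single cell gave most interferon-high counts of some of them. The median cell had 769 CPM of the 10 neutrophil genes among interferon-high and 842 CPM among low-score cells, whose highest cell had 170753 CPM. One interferon-high cell had 86955 CPM, a Procr level of 51.1 CPM just above the gate and a score of 5.44, and gave 44.5% of all neutrophil list counts of the group. It supplied 91.5% of the group's Lcn2 counts, 92.4% of Ltf, 95.6% of Wfdc21 and 91.6% of Ifitm6. Without it Lcn2 had a log2 ratio of -2.08 in place of 1.30, Ltf of -2.11 in place of 1.39, Wfdc21 of -2.25 in place of 1.83 and Ifitm6 of -1.95 in place of 1.19. These lower ratios are one-sided, as the low-score cell at 170753 CPM was kept. The neutrophil list median, 0.72 in the main comparison, ranged from -1.70 without the interferon-high cell to 2.28 without the 3 libraries with most neutrophil counts. It was 1.01 when ranked within libraries. Without the interferon-high cell 36 interferon list genes were at a ratio of at least 1, 36 of them among the 37 found with it.

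Outside the score, 75 genes (0.998%) had a log2 ratio of at least 1 and 40 (0.532%) of at most -1. The 9 interferon lists together held 130 compared genes, of which 37 were at least 1 and 0 at most -1, with 119 above 0 and a median of 0.60. In the 33 libraries with at least 3 interferon-high and 5 low-score cells, the median of these genes was above 0 in 30. Over all genes the library median was below 0 in 32, and a gene of low level was often at 0 in the few interferon-high cells of a library. The interferon lists thus supplied 37 of the 75 genes at or above 1. The score holds genes of the same pathway, so this is a description of the chosen cells and not independent support. Among the 75 genes, 65 were counted in at least 10% of interferon-high cells, but only 44 were higher in at least 50% of the 33 libraries. Over 50% of the interferon-high counts came from 1 cell for 8 genes, of which 1 was in an interferon list (Ifitm6). The count of 37 interferon list genes was 21 with equally weighted libraries, 23 with 10 CPM added in place of 1, 22 for the top 20% of the gate and 24 against all other gate cells, and in each case all were among the 37.

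**Figure D2:**
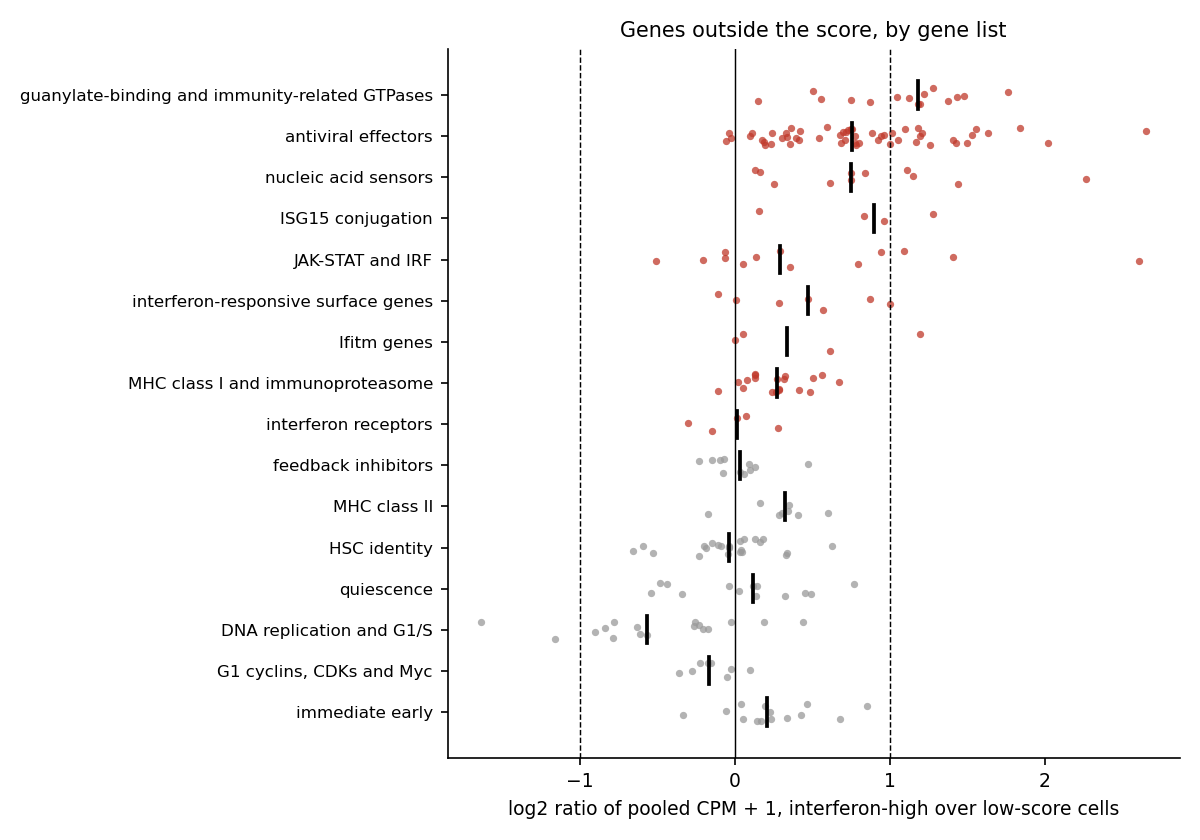
Log2 ratio of pooled CPM + 1, interferon-high over low-score cells (horizontal axis), for each compared gene outside the score (points) by gene list (rows); black bars are list medians, dashed lines mark 1 and -1, red rows are the 9 interferon lists and grey rows other lists. GTPase genes have the highest list median of the rows, 1.18, while interferon receptors, feedback inhibitors and HSC identity genes have medians of 0.01, 0.03 and -0.04.

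The ligands were close to undetected. Of 20 interferon ligand genes 7 were in the matrix and none reached the minimum level. Their summed counts came to 0.0713 CPM in interferon-high and 0.398 CPM in low-score cells, with a count in 1.08% and 0.537% of cells. Receptor transcripts differed little. Ifnar1 was at 46.2 CPM (43.7 to 48.8) in interferon-high and 45.9 CPM (44.7 to 47.1) in low-score cells, a log2 ratio of 0.01, and was higher in 11 of 33 libraries. Ifnar2, the other type I chain, was at 58.3 and 64.8 CPM (-0.15). Ifngr1, the ligand-binding chain for interferon gamma, was at 175 and 144 CPM (0.28), and Il10rb, which is shared by the receptors for type III interferon and interleukin 10, at 63.4 and 60.2 CPM (0.07). None of the 5 compared receptor genes was past the fold, and the sign of their median, 0.01, changed in some alternatives. The specific type III chain Ifnlr1 had no count in interferon-high cells, against 19 counts or 0.148 CPM in low-score cells.

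Of the 13 compared signalling and IRF genes, 3 were at least 1, with a list median of 0.29 that was -0.03 when libraries were weighted equally. Irf7, the factor that amplifies type I interferon responses, had the highest ratio of the list. It was at 264 CPM (258 to 269.7) in interferon-high and 42.5 CPM (41.3 to 43.6) in low-score cells, a log2 ratio of 2.61. Over the 33 libraries Irf7 was at 24.1 to 1246 CPM with a median of 233 CPM in interferon-high cells, against 4.50 to 178 CPM with a median of 44.4 CPM in low-score cells. The ranges overlapped, yet within a library Irf7 was higher in the interferon-high cells of 32 of 33. It was counted in 156 of 186 interferon-high cells (83.9%, 77.8 to 88.8) and 381 of 931 low-score cells (40.9%, 37.7 to 44.2), or in 78.8% and 29.2% after thinning. Irf7 lies on chromosome 7 at 141262706 to 141266481 of GRCm38, minus strand.

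Stat2 and Irf9, parts of the ISRE-binding complex, were both higher. Stat2 was at 70.7 CPM (67.6 to 73.8) in interferon-high and 26.1 CPM (25.2 to 27.0) in low-score cells, a log2 ratio of 1.40, and higher in 29 of 33 libraries. Irf9 was at 189 CPM (184 to 195) against 98.0 CPM (96.3 to 99.7), a ratio of 0.94 that stayed under the fold, in 29 of 33 libraries. The upstream kinases differed less or the other way: Jak1 was at 195 and 188 CPM (0.05) and Tyk2 at 16.2 and 23.5 CPM (-0.51), both picked after their values were seen. Irf1, which interferon gamma induces through the GAS site, was at 173 CPM (168 to 178) against 135 CPM (133 to 137), a ratio of 0.35 in 17 of 33 libraries.

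**Figure D3:**
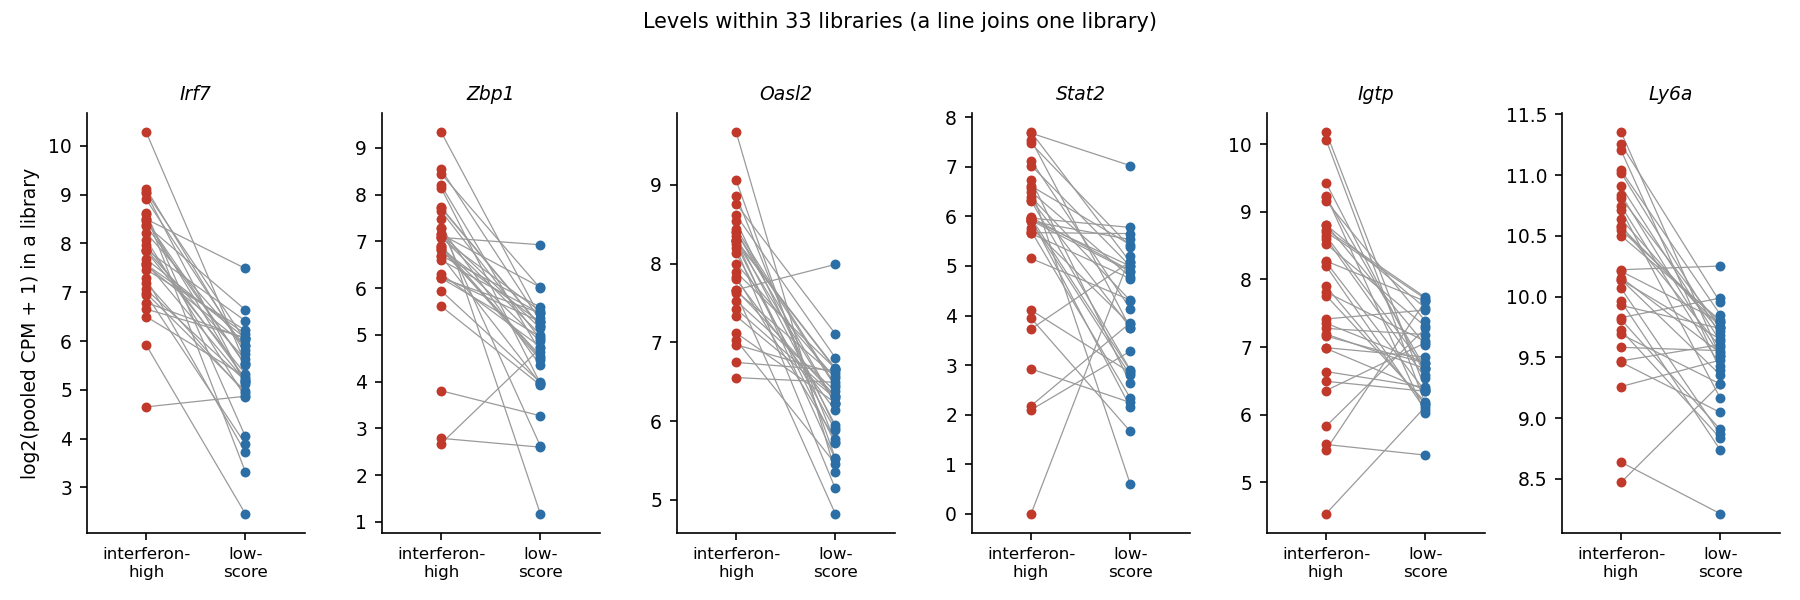
Level of 6 genes outside the score, as log2(pooled CPM + 1) on vertical axes that differ between panels and mostly do not start at 0, in interferon-high cells (red, left) and low-score cells (blue, right) of the same library, for 33 libraries joined by lines. Irf7 is higher in the interferon-high cells of 32 libraries, Zbp1 of 32, Oasl2 of 32, Stat2 of 29, Igtp of 28 and Ly6a of 28.

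Cytosolic and nuclear sensors of nucleic acid came next, with 4 of 11 compared genes at least 1 and a median of 0.75. Zbp1, a sensor of Z-form nucleic acid that can start necroptosis, was at 149 CPM (144 to 153) in interferon-high and 30.1 CPM (29.1 to 31.0) in low-score cells, a log2 ratio of 2.27. Over the libraries Zbp1 was at 5.39 to 647 CPM with a median of 119 CPM in interferon-high cells and 1.26 to 121 CPM with a median of 29.1 CPM in low-score cells. It was higher in the interferon-high cells of 32 of 33 libraries. The RNA helicase sensors resembled each other: Dhx58 (LGP2) had a ratio of 1.44 and was higher in 27 libraries, Ddx58 (RIG-I) had 1.15 in 27 and Ifih1 (MDA5) 1.11 in 26. Their adaptor Mavs had a ratio of 0.25, and the DNA-sensing adaptor Tmem173 (STING) of 0.16, both picked after their values were seen. Zbp1 lies on chromosome 2 at 173206612 to 173218923, minus strand.

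Antiviral effectors were the longest list, with 18 of 54 compared genes at least 1, none at most -1 and a median of 0.75. The oligoadenylate synthetase family led it. Oasl1 was at 56.5 CPM (53.7 to 59.3) in interferon-high and 8.12 CPM (7.63 to 8.62) in low-score cells, the highest ratio of all interferon list genes at 2.66. It was counted in 36.6% (29.6 to 43.9) and 9.34% (7.55 to 11.4) of cells, or 31.8% and 6.99% after thinning. Oasl2 had 267 CPM (261 to 273) against 73.7 CPM (72.2 to 75.2), a ratio of 1.84. Across libraries Oasl2 spanned 92.9 to 814 CPM with a median of 279 CPM in interferon-high cells and 27.3 to 253 CPM with a median of 77.3 CPM in low-score cells. Oas2 followed with 47.1 CPM against 10.9 CPM (2.02), although it was higher in 18 of 33 libraries. Rsad2 (viperin), an enzyme that makes a chain-terminating nucleotide, had 89.1 CPM against 28.1 CPM, a ratio of 1.63 in 26 libraries.

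Other antiviral genes past the fold, named after their values were seen, included the viperin neighbour Cmpk2 at 1.56 and the schlafen gene Slfn5 at 1.41. Oas1a had a ratio of 1.21, Oas3 of 1.17, the helicase gene Ddx60 of 1.26, the ADP-ribosyltransferase gene Parp14 of 1.09 and the restriction factor gene Trim12c of 1.20. Oas1a and Oas1g, like Oasl1 and Oasl2, are relatives whose reads may be divided between copies. The classical marker Mx1 stayed below the minimum level, at 7.10 CPM (6.15 to 8.16) in 13 interferon-high cells and 0.773 CPM (0.628 to 0.941) in 14 low-score cells, and was not compared. Some antiviral genes differed less, again picked after their values were seen: Apobec3 was at 462 and 406 CPM (0.19), Lgals9 at 363 and 369 CPM (-0.02) and Samhd1 at 107 and 93.4 CPM (0.20).

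In the Isg15 conjugation pathway 1 of 4 compared genes was past the fold. Herc6, the mouse ligase for Isg15, was at 30.7 CPM (28.7 to 32.8) in interferon-high and 12.1 CPM (11.5 to 12.7) in low-score cells, a ratio of 1.28. Ube2l6, the conjugating enzyme, had 0.83 and was higher in 29 of 33 libraries, and Trim25 had 0.96. Uba7, the activating enzyme, was at 269 and 241 CPM (0.15).

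Guanylate-binding and immunity-related GTPases, which coat and break pathogen vacuoles, had the highest median of the interferon lists, 1.18, with 10 of 15 compared genes at least 1. Igtp (Irgm3) was at 319 CPM (313 to 326) in interferon-high and 114 CPM (112 to 116) in low-score cells, a log2 ratio of 1.48. Over the libraries Igtp was at 22.2 to 1157 CPM with a median of 237 CPM in interferon-high cells and 41.4 to 212 CPM with a median of 102 CPM in low-score cells. Irgm1 had 254 CPM against 93.3 CPM, a ratio of 1.43 in 31 of 33 libraries. Gm4951, annotated in RefSeq also as Ifgga2, had 236 CPM (230.2 to 242) against 69.0 CPM (67.5 to 70.4), a ratio of 1.76 in 31 libraries. Gbp6 had a ratio of 1.37, at 19.0 CPM against 6.72 CPM. Tgtp1 and Tgtp2, a near-identical pair of the list picked after their values were seen, had ratios of 1.28 and 1.19, and reads may be split between them. Interferon-high cells exceeded low-score cells in most libraries for Igtp, Irgm1 and Gm4951, with Igtp lower in 5.

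Relatives of these GTPases appeared among the genes outside every list. Gm4841, the neighbour of Gm4951 on chromosome 18 and also called Ifgga3, had a ratio of 1.82 with counts in 20.4% of interferon-high and 11.8% of low-score cells. Also past the fold, and picked after their values were seen, were F830016B08Rik (Ifgga4) at 1.13 and Gm12185 (Irgb2b1) at 1.64. The score gene Iigp1 (Ifgga1) lies in the same stretch of chromosome 18 as the other Ifgga genes.

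Past-fold interferon list genes and the 7 score genes, 44 in all, were spread over 15 chromosomes. On chromosome 11 were 9 of them, among them Igtp, Irgm1, Irgm2, Tgtp1, Tgtp2, Slfn2 and Slfn5, and on chromosome 5 another 9, which were Oas, Oasl and Gbp genes. The others lay on 13 chromosomes with at most 3 each.

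Antigen presentation differed by less. No compared gene of the MHC class I and immunoproteasome list (19 genes) was past the fold, but 18 were above 0, with a median of 0.27 and a library median above 0 in 25 of 33. Nlrc5, the class I transactivator, was at 40.8 CPM (38.5 to 43.2) in interferon-high and 25.2 CPM (24.4 to 26.1) in low-score cells (0.67). The nonclassical gene H2-T22 had 0.56, the peptide transporter Tap1 0.50 and the immunoproteasome subunit Psmb9 0.48. B2m and H2-K1, picked after their values were seen, were at 11203 and 10257 CPM (0.13) and at 3658 and 3463 CPM (0.08). Reads of H2 genes may be shared among family members. MHC class II genes had a median of 0.32 with 0 of 8 past the fold, which was -0.05 with equally weighted libraries. Cd74, the invariant chain, was the highest of them at 724 and 477 CPM (0.60).

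Surface genes known to respond to interferon had a median of 0.47, with 1 of 7 past the fold. Bst2 (tetherin), which holds budding virions at the membrane, was at 415 CPM (408 to 423) in interferon-high and 207 CPM (204 to 209) in low-score cells, a ratio of 1.00. Ly6a (Sca-1) had 1288 CPM (1275 to 1301) against 704 CPM (699 to 708), a ratio of 0.87. Over the libraries Ly6a was at 354 to 2616 CPM with a median of 1181 CPM in interferon-high cells and 296 to 1218 CPM with a median of 751 CPM in low-score cells, and it was higher in 28 of 33. Sca-1 was among the stains used for sorting, and which sort gate a cell came from is unknown here, so its part in the Ly6a difference was not tested. Ly6e had 0.57 and was higher in 30 libraries.

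Of the Ifitm genes, whose products block viral fusion, 4 were compared, and the ratio of Ifitm6 was set by the single cell described above. Ifitm3 was at 3360.4 CPM (3339 to 3382) in interferon-high and 2197 CPM (2189 to 2205) in low-score cells, a ratio of 0.61 in 30 of 33 libraries. Ifitm1 had 3308 and 3191 CPM (0.05) and Ifitm2 1198 and 1197 CPM (0.00), both counted in nearly every cell of either group.

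Negative regulators showed little difference. Of 11 compared feedback inhibitors none was past the fold and the median was 0.03, which changed sign under several alternatives. Socs1, the main inhibitor of interferon receptor kinases, had the highest ratio, 0.47, at 56.1 CPM (53.4 to 59.0) in interferon-high and 40.3 CPM (39.2 to 41.4) in low-score cells. It was higher in 15 of 33 libraries. Ptpn2 had 0.13, Socs3 -0.15 and Ptpn11 -0.23. Usp18, itself a feedback gene, was part of the score.

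The chemokine genes with the highest ratios rested on few cells. In the chemokine and cytokine list 2 of 8 compared genes were at least 1, and the median was 0.40. Cxcl9 was at 28.8 CPM in interferon-high and 0.890 CPM in low-score cells (3.98), but had counts in 6 and 21 cells, and 1 cell gave 73.8% of the interferon-high counts. Ccl5 had 53.5 and 6.95 CPM (2.78), with counts in 9.14% and 6.98% of cells. Cxcl2, of the NF-kB list, had a ratio of 2.91 and was counted in 5.38% and 5.37% of cells. For these 3 genes the share of cells with a count was close in the groups, and their ratios describe few cells.

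Among the 12 highest ratios by the naming rule were also Ifi206, a pair of apolipoprotein L genes and Gab1. Ifi206, which belongs to the interferon-induced family of DNA-binding proteins, was at 15.1 CPM (13.7 to 16.6) in interferon-high and 1.76 CPM (1.53 to 2.00) in low-score cells (2.55), counted in 22 and 16 cells. Apol9b had 80.0 CPM (76.7 to 83.4) against 14.0 CPM (13.3 to 14.6) (2.43), counted in 43.5% and 14.6% of cells. Apol9a, its near copy, had 2.21. Gab1, an adaptor of receptor tyrosine kinases, had 22.9 and 5.93 CPM (1.79), counted in 16.7% and 10.5% of cells and higher in 18 of 33 libraries. The cell death gene Xaf1, which opposes the caspase inhibitor XIAP, was at 216 CPM (210.3 to 221) against 79.5 CPM (77.9 to 81.0), a ratio of 1.43 in 29 of 33 libraries.

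Promoters were read for the interferon genes at or above 1. RefSeq windows of GRCm38.p6 reach from 250 bases before to 50 after the start of a gene. They were searched for the ISRE core, here GAAA followed after any 2 bases by a second GAAA on either strand (TTTC, any 2 bases and TTTC when read on the other strand), and for the GAS form TTCNNNGAA, which is its own reverse complement. A GAS match can overlap an ISRE match and did so in 24 of 32851 windows. The ISRE core was in 3.44% of all windows, in 17 of the 27 interferon genes at or above 1 that had a window, and in 25 of 78 interferon genes compared under 1. It was in 6 of 30 other genes at or above 1 and in 2 of 36 genes at or below -1. The GAS form was in 8.30% of all windows, in 7 of the 27 (25.9%) and in 18 of the 78 (23.1%), so its share was close in these 2 sets. It was in 5 of the 30 other genes and in 1 of the 36. Counted by gene over all compared genes with a window, the ISRE core was in 4.17% and the GAS form in 8.51%. All 6 GTPase genes at or above 1 with a window held the ISRE core and 4 of them the GAS form. No ISRE core was found in the windows of Irf7, Oasl1 and Oasl2, which says only that these letters are absent there. A match is a stretch of letters and not a measured binding site.

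The 5 windows here show where the ISRE core sits in a score gene (Isg15), a part of the ISRE-binding complex (Stat2), an antiviral enzyme (Rsad2) and 2 GTPases (Irgm1 and Igtp). Each is written 5′ to 3′ on the strand of its gene, with every ISRE match in capitals.
Isg15 (chr4:156200769-156201068, minus strand): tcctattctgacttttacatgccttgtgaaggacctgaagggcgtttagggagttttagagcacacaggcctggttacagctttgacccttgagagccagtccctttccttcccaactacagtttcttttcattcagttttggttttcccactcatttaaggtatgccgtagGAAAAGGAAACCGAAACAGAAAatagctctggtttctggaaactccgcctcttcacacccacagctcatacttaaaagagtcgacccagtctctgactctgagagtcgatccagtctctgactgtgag
Stat2 (chr10:128270248-128270547, plus strand): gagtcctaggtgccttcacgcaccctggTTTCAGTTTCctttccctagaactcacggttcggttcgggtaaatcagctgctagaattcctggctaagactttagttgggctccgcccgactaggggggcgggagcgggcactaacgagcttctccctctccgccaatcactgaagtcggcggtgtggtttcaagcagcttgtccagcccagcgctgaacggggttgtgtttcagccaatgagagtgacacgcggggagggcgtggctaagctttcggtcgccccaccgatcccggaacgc
Rsad2 (chr12:26456403-26456702, minus strand): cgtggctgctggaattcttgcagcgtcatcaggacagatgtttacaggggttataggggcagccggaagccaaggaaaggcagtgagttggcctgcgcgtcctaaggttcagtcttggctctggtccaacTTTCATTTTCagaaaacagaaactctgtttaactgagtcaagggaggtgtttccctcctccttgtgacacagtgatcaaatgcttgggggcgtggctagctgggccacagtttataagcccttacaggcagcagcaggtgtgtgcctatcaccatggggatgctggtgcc
Irgm1 (chr11:48871371-48871670, minus strand): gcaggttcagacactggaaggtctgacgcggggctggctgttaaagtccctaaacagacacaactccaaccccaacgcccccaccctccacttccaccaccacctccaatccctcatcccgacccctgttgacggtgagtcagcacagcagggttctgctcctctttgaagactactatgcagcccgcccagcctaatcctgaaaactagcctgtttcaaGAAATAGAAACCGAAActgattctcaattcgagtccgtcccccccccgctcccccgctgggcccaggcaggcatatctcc
Igtp (chr11:58199306-58199605, plus strand): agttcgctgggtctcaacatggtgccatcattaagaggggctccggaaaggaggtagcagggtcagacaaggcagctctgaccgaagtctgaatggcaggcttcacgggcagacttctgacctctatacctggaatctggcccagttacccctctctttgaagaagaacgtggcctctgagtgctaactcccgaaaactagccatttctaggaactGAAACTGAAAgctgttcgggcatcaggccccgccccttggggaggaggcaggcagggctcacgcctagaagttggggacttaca
Isg15 holds 3 overlapping matches, which start 66 to 78 bases before the start of the gene, and Irgm1 holds 2, which start 24 and 30 bases before it. The single matches start 222 bases before the start in Stat2, 120 in Rsad2 and 34 in Igtp. Of the 4 genes outside the score, the log2 ratio was 1.63 for Rsad2, 1.48 for Igtp, 1.43 for Irgm1 and 1.40 for Stat2, so Irgm1 with 2 matches did not have the highest ratio.

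Levels were then followed over 10 bins of the gate by score, each of 186 or 187 cells. Irf7 was at 28.6 CPM in bin 1, 68.8 CPM in bin 5, 88.2 CPM in bin 9 and 264 CPM in bin 10, the interferon-high cells. Zbp1 was at 20.9, 38.4, 62.1 and 149 CPM in the same bins, and Oasl2 at 55.0, 87.6, 134 and 267 CPM. For these genes the largest step was the last one, but the bins were alike in number of cells and not in width of score. Bin 10 spanned scores of 4.64 to 10.2 and bin 9 of 3.71 to 4.64, so the step does not show a jump at the boundary. Stat2 was at 19.8, 29.1, 39.2 and 70.7 CPM and Ly6a at 602, 706, 921 and 1288 CPM. Ifnar1 stayed between 43.3 and 48.7 CPM in all 10 bins, and B2m between 9754 and 11203 CPM.

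**Figure D4:**
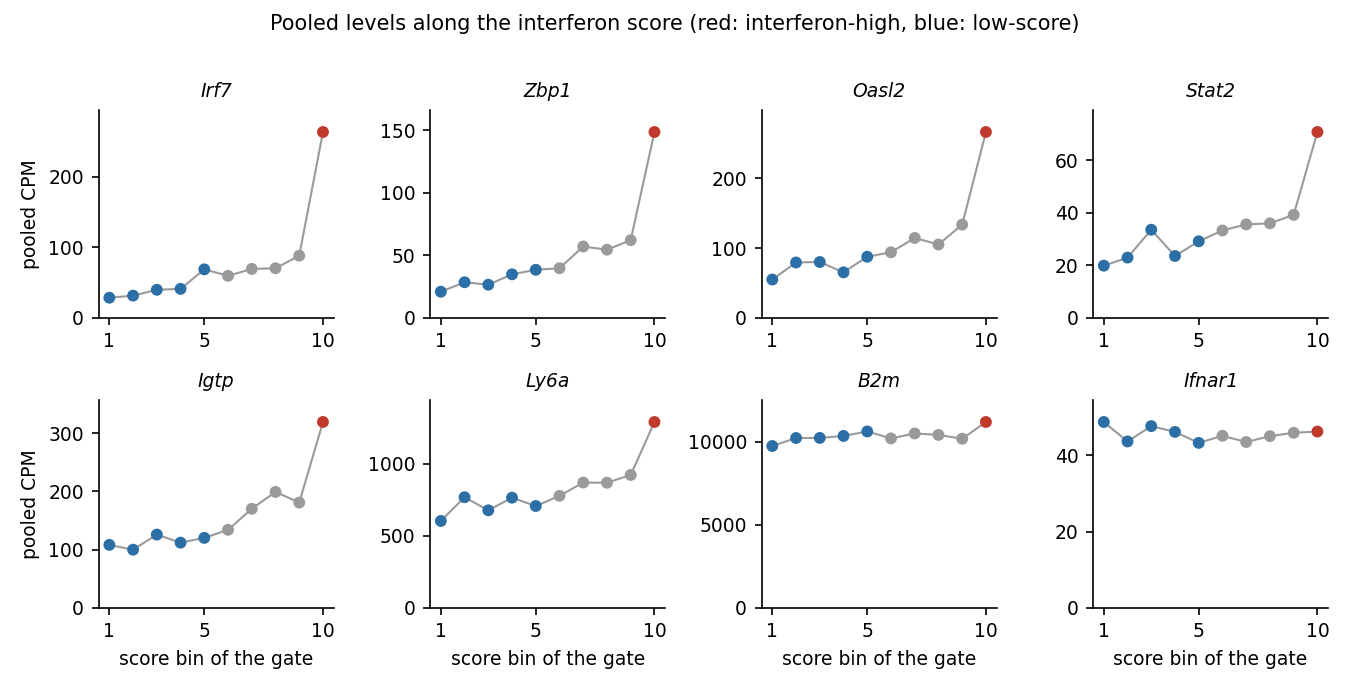
Pooled CPM (vertical axes, from 0) of 8 genes outside the score in 10 bins of gate cells ordered by score (horizontal axis, low to high; blue, low-score cells; grey, middle of the gate). Irf7 is at 28.6 CPM in bin 1 and 264 CPM in bin 10 (red, interferon-high cells), while Ifnar1 stays between 43.3 and 48.7 CPM.

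Interferon-high cells were not uniform. In their upper 46 cells by score, Irf7 was at 472 CPM, Zbp1 at 285 CPM, Stat2 at 106 CPM, Rsad2 at 174 CPM and Socs1 at 97.0 CPM. In their lowest 47 cells Irf7 was at 239.6 CPM, Zbp1 at 96.5 CPM, Stat2 at 39.9 CPM, Rsad2 at 48.1 CPM and Socs1 at 33.6 CPM. The cells between did not follow the score step by step, with Irf7 at 167 CPM in the 47 next lowest and 221 CPM in the 46 after them. Ly6a differed less, with 1222 CPM in the upper cells and 1197 CPM in the lowest.

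The antiviral and GTPase lists varied from cell to cell within the group. The mean log2(CPM + 1) over compared antiviral genes ranged from 2.26 to 7.44 with a median of 4.08 in interferon-high cells, and from 0.83 to 5.07 with a median of 2.99 in low-score cells. For GTPase genes it ranged from 2.08 to 9.38 with a median of 4.36 in interferon-high cells, and from 0.00 to 7.06 with a median of 3.00 in low-score cells. At or under the low-score median lay 11 interferon-high cells (5.91%) for antiviral genes, 22 (11.8%) for GTPase genes and 56 (30.1%) for MHC class I genes. The Spearman correlation of the antiviral and GTPase means was 0.23 over the 186 interferon-high cells and 0.27 over the 931 low-score cells, a description of cells that share libraries and differ in depth.

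Markers of HSC subsets and of activation were compared by the share of cells with a count. Slamf1 (CD150) was counted in 64 of 186 interferon-high cells (34.4%, 27.6 to 41.7) and 268 of 931 low-score cells (28.8%, 25.9 to 31.8), or 25.1% and 23.1% after thinning. Vwf, a marker of platelet-biased HSCs, was counted in 25.3% (19.2 to 32.1) and 18.8% (16.3 to 21.5), or 17.3% (12.1 to 23.7) and 12.5% (10.4 to 15.0) after thinning. Its pooled level was 25.7 and 14.3 CPM (0.80), and Vwf was higher in 13 of 33 libraries. In the megakaryocyte and platelet list, which holds Vwf, 0 of 11 compared genes were past the fold and 6 were above 0. The list median was 0.05, and -0.11 when ranked within libraries. Mmrn1 had a ratio of 0.30, Itga2b of -0.32 and Gp9, at 46.8 and 82.3 CPM, of -0.80. Cd34 was counted in 84.4% and 80.6% and Flt3 in 40.3% and 35.2%, which after thinning were 75.4% and 73.7% for Cd34 and 27.9% and 26.1% for Flt3. Of the interferon-high cells 11.8% (7.56 to 17.4) were also in the top 10% of the gate by immediate early genes, against 9.67% (7.85 to 11.7) of low-score cells.

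Cell cycle genes were compared within the limits of the gate, which had removed cells with mitotic genes. The DNA replication and G1/S list had 0 of 17 compared genes at least 1, 2 at most -1 and a median of -0.57. Ung, a uracil DNA glycosylase, was at 4.99 CPM (4.20 to 5.89) in interferon-high and 17.7 CPM (17.0 to 18.4) in low-score cells (-1.64). Cdt1, which licenses replication origins, had 6.67 and 16.2 CPM (-1.16). Outside the list the lowest ratios were those of Wdr76 at -2.11 and of Hells, a chromatin remodeller of dividing cells, at -1.94. The primase subunit Prim1 had -1.31 and Dtl, which targets Cdt1 for degradation, had -1.30. These are not all of the 12 lowest genes by the naming rule. The others were AI854703 at -1.70, Slc39a9 at -1.51, Rab22a at -1.36 and Mcph1 at -1.29, with Usp6nl at -1.29, Clk2 at -1.28 and Ski at -1.27. Of the 12 only 1, Ung, was in any gene list. The summed CPM of the list in the median cell was 715 in interferon-high and 707 in low-score cells, while the highest cell had 3476 and 6482 CPM. With each cell weighted equally the list median was -0.17.

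Hells was counted in 21.5% of interferon-high and 22.6% of low-score cells, and 1 cell gave 23.2% of the interferon-high counts. Of the 40 genes at or below -1, 13 were also there with equally weighted cells and 10 after thinning, so most genes of this side changed with the weighting. Myc, a driver of growth, was at 299.9 CPM (293 to 306) in interferon-high and 338 CPM (335 to 342) in low-score cells, a ratio of -0.17. Among quiescence genes 0 of 13 were past the fold with a median of 0.11. That median was -0.02 with equally weighted cells and -0.02 when ranked within libraries. It was -0.05 for the top 20% and -0.71 with equally weighted libraries, and stayed above 0 in the other alternatives. Cdkn1a (p21) had 39.2 and 22.7 CPM (0.77), with 32.9% of the interferon-high counts from 1 cell, and Cdkn1c (p57) 15.2 and 10.8 CPM (0.45). Hes1 had a ratio of 0.49, while the lowest were Btg2 at -0.54 (93.9 and 137 CPM) and Tob1 at -0.49. Kit was at 139 and 163 CPM (-0.23).

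Metabolic, autophagy and p53 programmes had medians near that of all genes, -0.02. Medians were -0.04 for oxidative phosphorylation (39 compared genes), -0.07 for ribosome biogenesis (28), 0.05 for autophagy and lysosome (21) and 0.02 for p53 targets (13), with 0 genes past the fold in either direction. Cholesterol synthesis genes had a median of -0.09 over 13 genes, with Dhcr7 lowest at -0.64. Genes raised in aged HSCs had a median of 0.16 over 20 genes with 1 past the fold, Clu at 1.01, of whose interferon-high counts 43.8% came from 1 cell and which was below 0 in 4 alternatives. Erythroid genes had a lower pooled level, with a median of -0.89 over 5 genes, which was -0.90 with equally weighted cells and -0.60 after thinning. Over the alternatives it ranged from -1.44 against all other gate cells to -0.12 when ranked within libraries, and it was -0.14 for the top 20%. The median cell did not show the drop, with a summed 1775 CPM of the 10 list genes in interferon-high and 1731 CPM in low-score cells. The highest cell had 10532 and 123198 CPM. The 2 of them at or below -1 were the alpha-globin genes Hba-a1 at 132 and 268 CPM (-1.02) and Hba-a2 at 88.5 and 191 CPM (-1.10), and 1 cell gave 20.7% of the low-score counts of Hba-a2. Their reads may be split between these near-identical copies. Vcam1, of the macrophage list, had 1.28 with counts in 12.9% and 13.0% of cells, and was below 0 in 2 alternatives. The other compared genes of that list were C1qb at 0.25, C1qa at -0.05 and Cd68 at -0.45. The median of these 4 genes was 0.10, but -0.21 with equally weighted cells and -0.21 after thinning. Summed over the 10 list genes, the level was 100 CPM in interferon-high and 103 CPM in low-score cells.

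Interferon-high cells came from many libraries. Of 64 libraries with gate cells 50 held at least 1, and none held more than 9. The 2 libraries with most held 9.14% of the group. In the 57 libraries with at least 10 gate cells the share ranged from 0 to 26.7% with a median of 10%. The exact 95% interval of 57 of these 57 included the overall 10%. In 8 of these libraries no gate cell was interferon-high, but they held 10 to 23 gate cells each, too few for an interval that ends below 10%. The smallest of them had 0 of 10 gate cells, which allows a share of up to 30.8% by the exact interval.

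**Figure D5:**
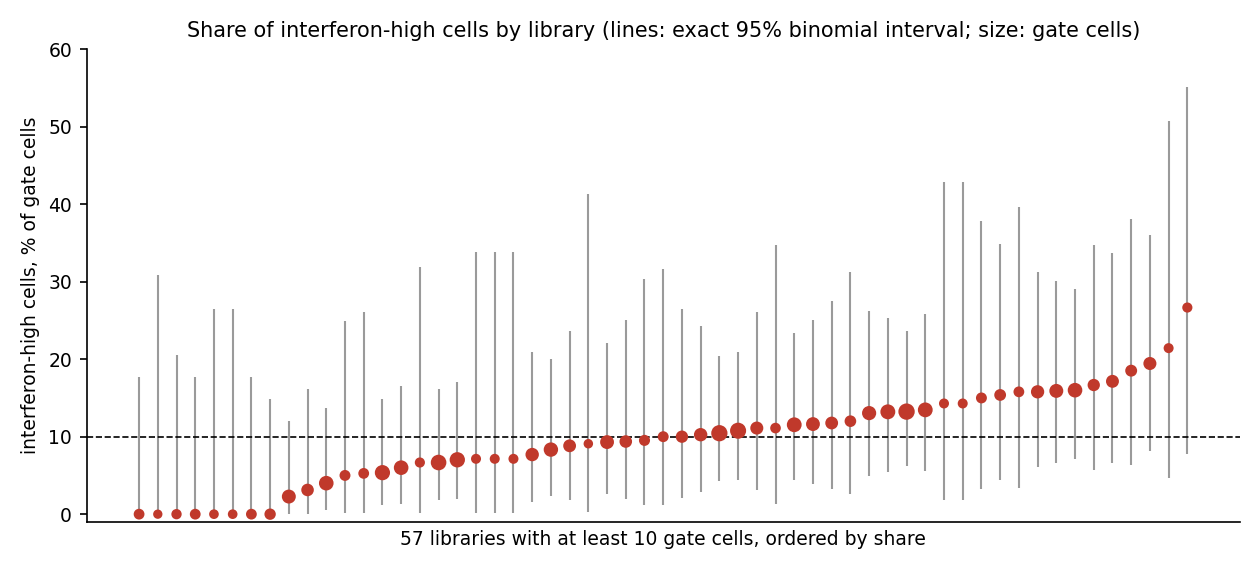
Share of interferon-high cells among gate cells (vertical axis, %) in the 57 libraries with at least 10 gate cells, ordered by share, with exact 95% binomial intervals (lines) and point size growing with the number of gate cells. Shares run from 0 to 26.7% and every interval crosses the dashed line at 10%.

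Cells with an equally high score also occurred outside the gate. Of kept cells outside it, 155 of 2323 (6.67%, 5.69 to 7.76) reached the lowest interferon-high score, against 10% of gate cells by construction. Among outside cells with Procr under 50 CPM the share was 89 of 1537 (5.79%, 4.68 to 7.08). Cells kept out by their proliferation genes while Procr was at 50 CPM or more reached it in 63 of 756 (8.33%, 6.46 to 10.5). The median score was 1.86 outside the gate and 2.31 within it, and median depths were 109177 and 132624 counts.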

How the data were processed

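Single cells were profiled by STRT-seq. The authors deposited 1 table of counts per gene and cell; the sources used here do not say whether reads or molecules were counted, or on which strand. Trimmomatic 0.36, HISAT2 2.1.0 and HTSeq 0.9.1 with the build GRCm38 are named by the submitters' processing notes. One library of 17 cells was too small to be read in by the rules used here, so 17 columns of the table were not used. From the deposited counts, CPM per cell, the score and pooled CPM per group were computed with Python 3.11.15, numpy 2.4.6, scipy 1.17.1 and pandas 2.3.3, and the script was tested on simulated counts. Cells had been sorted singly, so no doublet caller was run. No cells were identical, although 93 of 95 barcode numbers occur in more than 1 library. Of 4271 cells, 76 had too few genes and 10 too many mitochondrial counts. Positions came from GENCODE M21, which held 19071 of 19224 symbols.

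The members, the 39 gene lists (606 of 626 genes in the matrix) and the comparisons were chosen with earlier results of these data known. Genes were named by rule: the 12 highest and 12 lowest ratios among genes counted in at least 10% of the cells of the higher group, the 4 highest of each interferon list, the 2 highest and 2 lowest of each other list, and a standing set of pathway and HSC genes. Others are marked as picked after their values were seen, and a few genes that the rule names are not reported here. Directions were counted in 33 libraries, without treating libraries as replicates.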

Additional observations from a re-analysis of the deposited data

How the results depend on the processing

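Across 17 alternatives, 47 named genes past the fold gave 799 values, of which 777 kept their sign and 675 were still past the fold. No paired analysis was possible because no result comes from a test and the cells carry no sample or replicate number; leaving out replicates was likewise not possible with 1 pooled sample. The median of the interferon lists together stayed between 0.22 and 0.71, and that of the GTPases between 0.78 and 1.49. Of 560 list medians 68 had the other sign.

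With libraries weighted equally, where few cells stand for a library and low genes are often at 0, the median of all genes was -0.61. The counts at or above 1 were then 25 for all genes, 21 for interferon lists and 0 for other lists, and those at or below -1 were 1981, 6 and 73. The medians of JAK-STAT and IRF genes, MHC class II and Ifitm genes were -0.03, -0.05 and -0.08 there, above that of all genes. With a pseudocount of 10 CPM 38 genes, 23 of them in interferon lists, were at or above 1, and 3, of which 1 in another list, at or below -1. With no minimum level 354 were at or above 1 (17 in other lists) and 511 at or below -1 (1 in interferon and 22 in other lists). A minimum log2 CPM of 6 left 31 at or above 1 (25 in interferon and 3 in other lists) and 2 at or below -1, 2 of them in other lists. The top 5% gave 151 and 179, with 1 interferon gene and 22 other list genes at or below -1, and the top 20% gave 41 (22 in interferon lists) and 7 (2 in other lists). Against all other gate cells 24 interferon genes and 4 other list genes were at or above 1.

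Other list genes at or above 1 were 3 with equal cell weights, 3 after thinning, 3 with Procr at 100 CPM or more and 4 without the neutrophil-marked cell, in place of 8. Those at or below -1, 4 in the main comparison, were 2 after thinning, 1 when ranked within libraries, 10 with the Procr limit and 10 without that cell. Ratios turned negative with equal library weights for Wfdc21 (-0.65), Ifitm6 (-0.76), Clu (-0.38), Ltf (-0.30), Lcn2 (-0.52) and Vcam1 (-0.58). In the top 5% they were -2.35 for Wfdc21, -2.44 for Ifitm6, -0.85 for Clu, -2.13 for Ltf, -1.82 for Lcn2 and -2.21 for Vcam1. With Procr at 100 CPM or more they were -1.73 for Wfdc21, -1.76 for Ifitm6, -1.79 for Ltf and -1.69 for Lcn2, and without the neutrophil-marked cell -2.25, -1.95, -2.11 and -2.08 for the same genes. Clu was at -0.34 when ranked within libraries and -0.24 without the 3 libraries with most neutrophil counts, an alternative chosen, like the removal of the cell, after seeing the data. The cause of the other changes was not tested.

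Depth limits what can be said of low genes: a count of 0 in the interferon-high cells allows up to 0.107 CPM. Cells could not be tied to a month, tissue or donor, so no difference between samples can be given.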
